A study of Drosophila melanogaster with 2 samples.

Results

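Autosomal intronic peaks away from promoters are the peaks whose summit lies inside a gene, in no annotated exon and more than 500 bp from every annotated transcript start. They were chosen from the pooled thresholded peak list of a chromatin immunoprecipitation sequencing (ChIP-seq) experiment by position alone, on the Ensembl annotation of the dm6 assembly, and signal played no part in the choice beyond the threshold of the list itself. Of 4565 pooled peaks on the chromosome arms, 3678 lay on autosomes and 1194 met the rule, which is 32.5% of the autosomal peaks. The rule was also applied to each replicate's own list, where it found 808 peaks for replicate 1 (33.2% of its autosomal peaks) and 764 for replicate 2 (30.4%). The 1194 peaks are compared below with 1775 autosomal promoter peaks, 570 autosomal intergenic peaks away from promoters, 436 intronic peaks of the X chromosome and 37266 autosomal intronic peaks of the ranked list that stayed under the threshold.

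The experiment has 1 group of 2 biological replicates, whole Drosophila melanogaster embryos of the strain H2.0-GFP aged 0 to 24 h, in which an inserted transgene encodes the transcription factor H2.0 fused to eGFP. An antibody against GFP was used for the immunoprecipitation. Both replicates come from the same strain, no untagged strain or second condition was compared, and the control library was not analysed here, so a peak marks signal, and binding of H2.0 there was not shown. A whole embryo mixes all tissues and a wide span of stages, and a peak does not tell in which cells its signal arose. With 2 replicates the smallest p that an exact two-sided sign test can give is 0.5, so no p-value is reported, peaks are not treated as replicates, and the separate list of each replicate gives the spread.

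H2.0 is a homeodomain protein known from the visceral musculature, the muscle layer of the gut. Fly introns hold many enhancers, short stretches of DNA where transcription factors gather to switch a gene on, and long introns near the start of a gene are a common place for them. Many homeodomains recognise AT-rich DNA around the core TAATTA, called the homeodomain core here. Others, such as those of the NK class or of the caudal and Abd-B class, prefer other words. A position in an intron is called first here when every transcript whose intron covers it counts that intron as number 1, later when none does, and mixed when transcripts differ.

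The sequences below are the plus strand of dm6 over the summit and 50 bp to each side of it, as in the RefSeq assembly, for the highest peaks on arms 2L, 3L and 3R found in both replicate lists, so that the letters behind the base composition and motif results can be seen. Capitals mark matches to the factor motifs searched, except the sites of TCF, AP-1, Su(H), Grainyhead and Scalloped, which were left unmarked. Lower case is all other sequence, runs of A and CA repeats included. The first 4 lie in first introns, of CG32486 (chr3L:3060758-3060858), CG9663 (chr2L:3302137-3302237), CG9837 (chr3R:8811624-8811724) and chif (chr2L:16351160-16351260), which encodes a regulator of DNA replication.
CG32486: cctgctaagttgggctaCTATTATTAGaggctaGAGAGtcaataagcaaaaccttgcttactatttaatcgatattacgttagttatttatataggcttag
CG9663: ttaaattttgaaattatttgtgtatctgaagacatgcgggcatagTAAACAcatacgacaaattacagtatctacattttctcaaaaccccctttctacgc
CG9837: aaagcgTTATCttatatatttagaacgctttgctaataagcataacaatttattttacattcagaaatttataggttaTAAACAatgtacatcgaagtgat
chif: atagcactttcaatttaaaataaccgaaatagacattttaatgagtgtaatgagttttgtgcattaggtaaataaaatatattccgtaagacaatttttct
The next 4 lie in later introns, of CG11050 (chr2L:6612665-6612765), Trl (chr3L:14759436-14759536), MYPT-75D (chr3L:18640652-18640752) and sick (chr2L:19865590-19865690).
CG11050: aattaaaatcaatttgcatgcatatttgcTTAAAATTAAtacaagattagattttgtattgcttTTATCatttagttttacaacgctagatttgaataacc
Trl: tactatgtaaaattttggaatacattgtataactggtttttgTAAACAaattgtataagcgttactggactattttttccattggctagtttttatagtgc
MYPT-75D: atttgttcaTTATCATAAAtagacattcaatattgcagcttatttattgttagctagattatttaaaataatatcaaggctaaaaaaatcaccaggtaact
sick: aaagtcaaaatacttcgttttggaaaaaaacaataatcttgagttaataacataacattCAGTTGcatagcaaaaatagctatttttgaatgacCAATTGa
The last 2 lie in mixed introns, of mub (chr3L:21880444-21880544), which encodes a KH-domain RNA-binding protein, and Gug (chr3L:8458282-8458382), which encodes the corepressor Atrophin.
mub: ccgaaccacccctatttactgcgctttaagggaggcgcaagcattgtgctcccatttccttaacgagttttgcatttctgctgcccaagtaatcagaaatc
Gug: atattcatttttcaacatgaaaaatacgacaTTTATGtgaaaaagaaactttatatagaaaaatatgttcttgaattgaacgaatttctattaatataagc
The windows at CG11050, Gug and MYPT-75D hold 22.8%, 20.8% and 23.8% G and C, and that at mub holds 47.5%. None of these 10 windows holds the homeodomain core TAATTA, and those at chif and mub hold no match to any motif marked.

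The intronic peaks spanned a wide range of signal. The deposited signal value, the enrichment signal that the peak caller gives each peak, ran from 3.22 to 1881.5 in the pooled list with a median of 90.9 (quartiles 66.2 and 139). The median was 104 for autosomal promoter peaks, 85.5 for autosomal intergenic peaks and 96.5 for X intronic peaks. Within introns it was 93.2 in first introns (526 peaks), 95.6 in mixed ones (293) and 81.9 in later ones (375), differences that are small beside the quartiles. In 978 of the 1194 peaks (81.9%) the deposited width was 296 bp. Just inside the distance limit, 65 summits over 500 and up to 600 bp from a start had a median of 93.1, and just outside it, 65 intronic summits over 400 and up to 500 bp away had 89.5.

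The intronic peaks recurred in both replicate lists about as often as pooled peaks in general. A summit within 200 bp stood in both replicate lists for 552 of the 1194 (46.2%, 95% exact Clopper-Pearson interval 43.4 to 49.1, which covers counting error only), against 49.2% of all pooled peaks on the arms. The share was 54.2% (51.8 to 56.5) for autosomal promoter peaks, 42.8% (38.7 to 47.0) for autosomal intergenic peaks and 51.6% (46.8 to 56.4) for X intronic peaks. Another 204 intronic peaks were in the list of replicate 1 alone, 160 in that of replicate 2 alone and 278 (23.3%) in neither. Among first introns 47.3% were in both lists, among mixed ones 52.6% and among later ones 39.7%. The share followed signal closely, a relation partly built in, because pooled signal and replicate lists come from the same libraries. In 4 signal classes, each with as many pooled peaks as the next, 243 of 245 intronic peaks in the highest class (99.2%) were in both lists, then 78.9%, 18.0% and 1.51% in the lowest. The deposited q-value was below 0.05 for 795 of the 1194 peaks (66.6%), against 69.4% of all pooled peaks.

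The 25 highest intronic peaks that stood in both lists lay mostly in first introns and close to a start. Of these, 16 were in first introns, 4 in mixed and 5 in later ones, and 16 of the 25 summits were within 1000 bp of a start (median 927 bp). Over all 1194 intronic peaks, 44.1% were in first introns and 22.3% were within 1000 bp of a start. The highest was at CG11050, where the 140 bp intron that is number 2 of its transcripts held a summit 1028 bp from the start, with a signal value of 1881.5 in the pooled list, 976 for replicate 1 and 899 for replicate 2. That peak is 317 bp wide, longer than the intron, so its place in an intron rests on the summit alone. Signal values are not scaled between lists and can be ranked only within one. The second highest was at Adf1 (chr2R:6662924-6663205), which encodes a Myb-type transcription factor, with 1161 in the pooled list, 644 in replicate 1 and 551 in replicate 2. An intron of HmgD, which encodes an HMG-box chromatin protein, held the third (chr2R:21703216-21703610; 993, and 545 and 433 in replicates 1 and 2). That summit also lay in an intron of the overlapping gene HmgZ, 560 bp from a start of HmgZ and 1932 bp from the nearest of HmgD.

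Several of the next hosts encode regulators. Hr3, a nuclear receptor of the ecdysone response, had a summit 7883 bp from its nearest start with a signal value of 746 (392 in replicate 1 and 356 in replicate 2). Trl, which encodes the GAGA factor, had 726 (419 and 314), MYPT-75D, which encodes a targeting subunit of myosin phosphatase, 623 (314 and 322), and Gug 565 (284 and 283). KCNQ, a potassium channel gene, had 602 (302 and 293), Csk, which encodes a kinase that restrains Src kinases, 549 (306 and 249), for, which encodes a cGMP-dependent protein kinase, 531 (297 and 230), and Dhc64C, the heavy chain of cytoplasmic dynein, 493 (262 and 238). For 21 of the 25 the nearest start was one of the host gene named here, and HmgD, CG32486, KCNQ and CG4622 were the exceptions. The KCNQ summit was 748 bp from a start of mlt and 4802 bp from the nearest of KCNQ. The CG4622 summit, also in an intron of ITP, was 544 bp from a start of ITP and 3970 bp from the nearest of CG4622. At CG32486 the signal value was 864, with 404 and 463 in replicates 1 and 2. The CG32486 summit was 530 bp from the start of an annotated copy of the transposable element Tirant and 10031 bp from the start of CG32486 itself. The other named peaks were at CG9663 (731), CG9837 (698), CG12769 (691), chif (653), mub (646), sick (616), lncRNA:CR44810 (583), Fem-1 (541), CG42327 (499), Reph (499), CG31635 (485), CG4622 (483) and CG4496 (483). The log2 ratio of replicate 2 over replicate 1 had an SD of 0.20 over these 25, which were picked for high signal in both lists, and of 0.62 over the 1167 intronic peaks with ranked values in both replicates. A common scale factor does not change either SD.

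**Figure D1:**
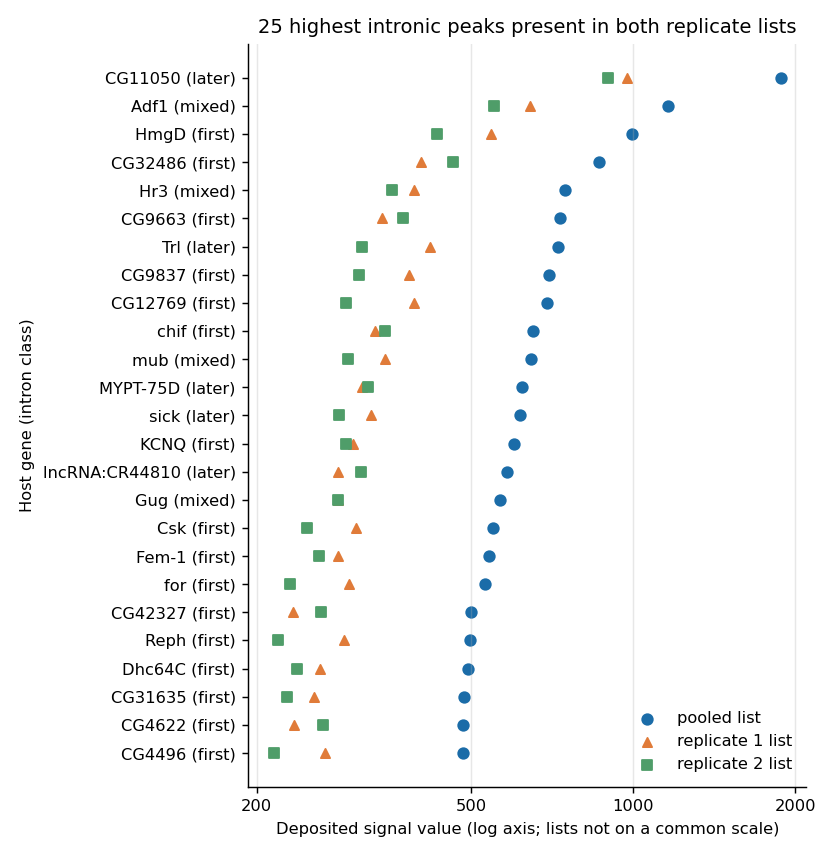
Deposited signal value (log axis) of the 25 highest intronic peaks found in both replicate lists, by host gene and intron class, with circles for the pooled list, triangles for replicate 1 and squares for replicate 2. At CG11050 the pooled value is 1881.5, and the lowest pooled value among the 25 is 483.

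The comparison of first with later introns asked where along a gene the peaks lie, with the amount of sequence open to the rule taken into account. First introns held 526 peaks in 10.5 Mb of eligible sequence, which is 49.9 per Mb, and later introns held 375 in 22.1 Mb, which is 17.002 per Mb. Mixed positions had 47.9 per Mb. The density in first introns was thus 2.93 times that in later introns. Replicate 1 gave 33.4 per Mb in first and 10.9 per Mb in later introns (ratio 3.07), and replicate 2 gave 32.6 and 9.88 per Mb (ratio 3.30). The ratio exceeded 1 by far more than these lists differed from each other. Among intronic peaks of the ranked list under the threshold, the densities were 1075 and 881 per Mb and the ratio was 1.22. The ratio was 3.50 for the peaks in both replicate lists, 4.57 for the highest signal class and 2.48 for the lowest.

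Density fell over intron numbers 1 to 4. Where all transcripts gave an intron the same number, the pooled list had 49.9 peaks per Mb in number 1, 27.7 in number 2, 18.2 in number 3, 5.61 in number 4 and 5.95 in number 5 and beyond (526, 179, 43, 7 and 43 peaks). Replicate 1 had 33.4, 16.9, 11.8, 2.41 and 4.85 per Mb along the same series, and replicate 2 had 32.6, 16.4, 8.88, 4.01 and 4.15. The 2 replicate lists kept the same order over numbers 1 to 3, while number 4 rested on 3 peaks in replicate 1 and 5 in replicate 2. Ranked peaks under the threshold fell less over this series, with 1075, 1024, 946, 905 and 648 per Mb. Among summits over 2000 bp from every start, the pooled densities were still 33.8, 27.2, 18.9, 7.03 and 5.06 per Mb.

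**Figure D2:**
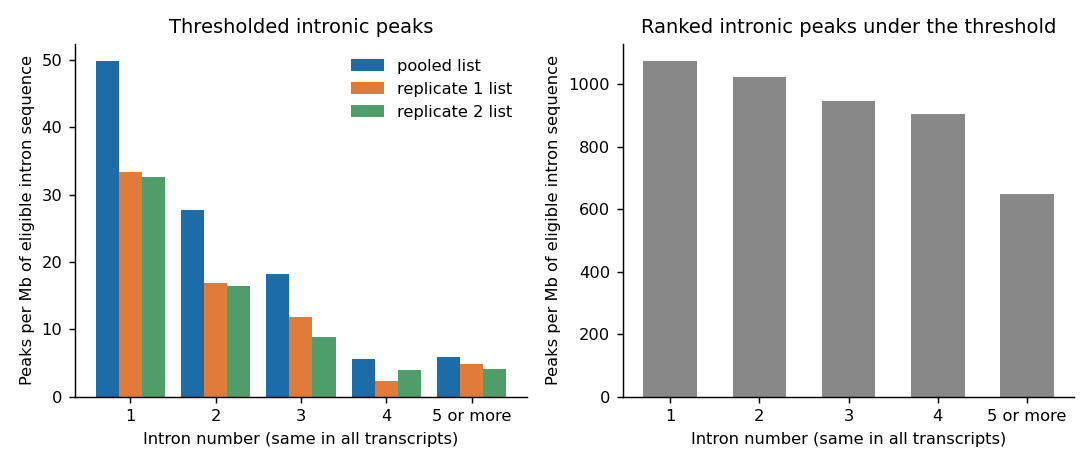
Peaks per Mb of eligible intron sequence by intron number, where all transcripts agree on the number. The left panel shows the pooled list and both replicate lists, which fall from number 1 to number 3, and the right panel shows ranked intronic peaks under the threshold on a scale of its own, between 648 and 1075 per Mb.

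The difference between first and later introns was largest near transcript starts. Over 500 and up to 1000 bp from the nearest start, first introns had 89.8 peaks per Mb and later introns 23.2, a ratio of 3.87 (3.84 in replicate 1 and 4.06 in replicate 2). The ratio was 3.22 up to 2000 bp (3.65 and 4.50), 1.90 from there up to 5000 bp (1.84 and 1.95) and 1.87 up to 10000 bp (1.86 and 1.73). Farther than 10000 bp it was 1.36 (1.51 and 1.72), where first introns held only 16 peaks. Later introns changed little up to 10000 bp, with 23.2, 19.9, 21.2 and 18.97 per Mb, whereas first introns had 89.8, 64.0, 40.2 and 35.5. Farther than 10000 bp, later introns had 9.82 and first introns 13.4 per Mb. That class held 7.03 Mb of the 22.1 Mb of later introns and 1.20 Mb of the 10.5 Mb of first introns. First and later introns thus differ in distance make-up, and the ratio of 2.93 over all eligible sequence is not adjusted for it. Over all intronic peaks the median distance to the nearest start was 2429 bp (quartiles 1076 and 5399), and the nearest start belonged to the host gene in 785 cases (65.7%). Whether starts that the annotation does not hold lie near these peaks was not tested.

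**Figure D3:**
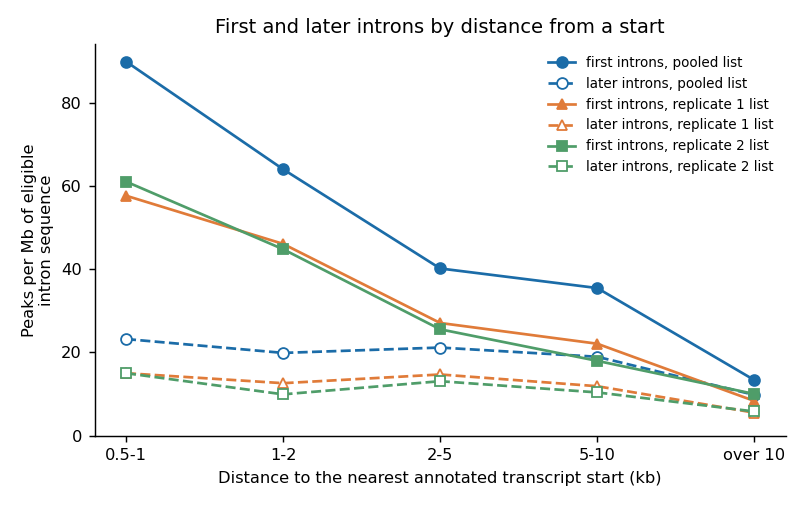
Peaks per Mb of eligible intron sequence by distance from the nearest annotated transcript start, with filled symbols and solid lines for first introns and open symbols and dashed lines for later introns, in the pooled list and each replicate list. In all 3 lists first introns lie above later introns in every distance class, with 89.8 against 23.2 per Mb in the nearest class of the pooled list.

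Splits by intron length, arm and base composition kept the direction. By the length of the longest intron over the position, the ratio of first to later introns was 13.0 up to 1000 bp (26 and 15 peaks), 3.67 from there up to 5000 bp, 2.61 up to 10000 bp, 1.65 up to 20000 bp and 2.62 above 20000 bp. By arm it was 2.26 on 2L, 3.35 on 2R, 2.88 on 3L and 3.11 on 3R, and by the GC content of the window around the position it lay between 2.71 and 3.52 in 5 classes. Within first introns the peaks leaned to the 5′ end, with 29.5%, 23.2%, 19.4%, 16.3% and 11.6% in 5 successive stretches of equal length (30.1% to 12.5% in replicate 1 and 32.0% to 12.8% in replicate 2). Within later introns the middle stretch held the most, with 20.8%, 21.6%, 25.9%, 17.9% and 13.9%, and it did so in both replicate lists (26.7% and 26.6%). The stretches were taken over the whole annotated intron, so sequence near starts or in other exons was not taken out of them.

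Arms 2L, 2R, 3L and 3R carried the intronic peaks at similar densities, with 32.99, 33.6, 31.2 and 28.2 per Mb of eligible sequence. Chromosome 4, which is largely heterochromatic, had 0 of them in 0.272 Mb in the pooled list and in both replicate lists, and 12 under the threshold in the ranked list. The autosomes together had 30.8 intronic peaks per Mb, against 46.6 on the X chromosome. Replicate 1 had 20.9 on autosomes and 33.6 on X, and replicate 2 had 19.7 and 30.8. Under the threshold the 2 densities were closer, at 963 on autosomes and 1038 on X.

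The host genes were then examined. The 1194 peaks fell in introns of 748 genes, 9.46% of the 7906 autosomal genes with any eligible intron sequence, and 720 of the hosts were protein-coding. Of the hosts, 467 held 1 peak, 157 held 2 and 124 held 3 or more. Hosts were long genes, with a median span of 18.4 kb against 3.03 kb for the other eligible genes, and with 10949 bp against 339 bp of eligible intron. The share of protein-coding genes that were hosts climbed with eligible length, being 0.601% up to 1000 bp, 12.7% up to 5000 bp, 30.9% up to 20000 bp, 45.1% up to 50000 bp and 53.6% above that. Peaks per Mb over the same classes were 23.1, 60.97, 45.5, 32.2 and 15.6, so the longest genes held more peaks but at a lower density. In 88 cases the peak lay in introns of more than 1 gene.

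Hosts also carried promoter peaks more often than other genes, a description with no test. A promoter peak of the pooled list stood within 500 bp of a start in 263 of 748 hosts (35.2%), against 19.5% of the other eligible genes. Among protein-coding genes of each length class, the density of intronic peaks was higher in genes with a promoter peak than in genes without one. From the shortest to the longest class it was 36.7 against 19.3 per Mb, 92.3 against 52.2, 71.9 against 36.6, 53.98 against 24.6 and 35.4 against 11.0. Both kinds of peak come from the same libraries, and their relation was not tested.

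**Figure D4:**
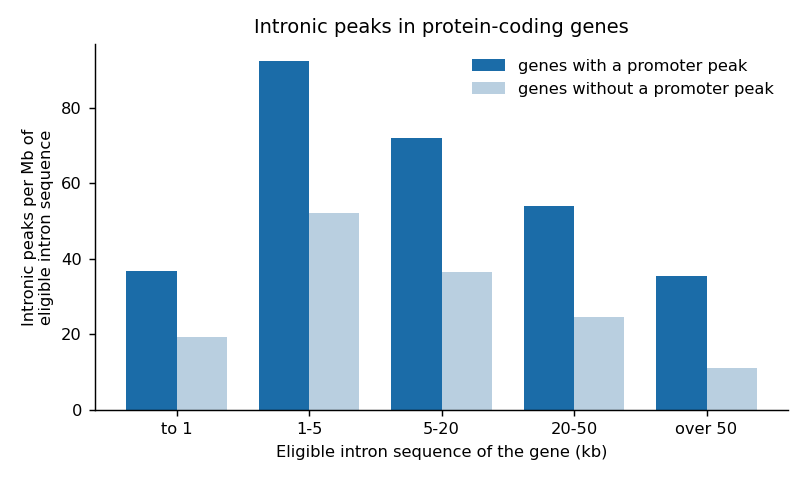
Intronic peaks per Mb of eligible intron sequence in protein-coding genes, by the eligible intron length of the gene, for genes with a promoter peak (dark bars) and without one (light bars). The dark bar is the higher in each of the 5 length classes, with 35.4 against 11.0 per Mb in the longest.

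The 10 genes described next held the most intronic peaks, with ties ordered by their highest signal value. The corepressor gene sbb held 11, the highest at 413, all at mixed positions and 8 of them in both replicate lists. The gene shn, which encodes a zinc-finger partner of the Dpp pathway, held 10 (highest 367, 5 in both lists), and CG32264 held 9 (408). The genes simj, which encodes a subunit of the NuRD chromatin complex, msn, which encodes a kinase upstream of JNK signalling, ftz-f1, which encodes a nuclear receptor, and SKIP held 7 each, with highest values of 368, 277, 221 and 187. The transcription factor gene apt, the Hox cofactor gene hth and ush, which encodes a cofactor of GATA factors, held 6 each (316, 257 and 239). Another 5 genes also held 6 but had lower signal, namely lncRNA:CR45939 (221), pnt (178), Tet (170.1), mtgo (118) and lncRNA:iab8 (107). The gene lncRNA:CR45939 overlaps ftz-f1, and the highest peak of both is the same one. In apt 5 of the 6 were in first introns, whereas all 7 in msn and all 7 in ftz-f1 were in later ones. The 10 genes held 76 of the 1194 peaks (6.37%), and their densities ran from 50.6 per Mb in hth and 51.4 in SKIP to 352 in simj, against 30.8 over all eligible sequence.

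Most intronic peaks stood alone. With 5000 bp as the largest gap within a group, 711 of 1194 (59.5%) had no other intronic peak near, 483 lay in 197 groups, and 24 groups had 4 or more. The largest group had 8 summits over 12995 bp in shn, 4 of them in both replicate lists. The next had 6 summits over 9689 bp in sbb, all 6 in both lists, and 6 over 9012 bp in simj, of which 2 were in both lists. The median gap between neighbours was 29.9 kb.

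Gene lists were counted next, by hosts among the list genes with eligible sequence and by density, beside the 9.46% of hosts and 30.8 peaks per Mb over all genes. The lists differ in length, so a share of hosts or a density can be read only against genes of like length. Median eligible length was 4682 bp in the visceral list, 15000 bp in the somatic muscle list and 27456.5 bp in the nervous system list. The list of visceral mesoderm and visceral muscle, the tissue H2.0 is known from, had 6 hosts of 13 and 45.7 peaks per Mb, which rested on 9 peaks in 0.197 Mb. Its highest peaks were in first introns of Mad, the transducer of Dpp signals (295, with 140 in replicate 1 and 171 in replicate 2), dpp, the BMP ligand (228; 120 and 110), mbc, needed for myoblast fusion (210.1; 139 and 81.6), and jeb, the ligand of the receptor Alk (194; 108 and 91.2). H2.0 itself had none. The list of somatic muscle and myoblast fusion had 10 of 19 and 37.9 per Mb, with Msp300 (364), how (199), the myogenic factor gene Mef2 (149.6) and Zasp52 (122). The nervous system and axon guidance list had 7 of 22 and 23.1 per Mb, with the netrin receptor gene fra (267), Sema1a (249), sli (194) and Sema2a (62.1, in neither replicate list). Numbers after these symbols are pooled signal values.

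Other lists spanned a wide range of density. Median eligible length was 23633 bp for other sequence-specific factors, 764 bp for chromatin regulators, 11313 bp for signalling components and 11320 bp for cytoskeleton genes. Other sequence-specific factors had 23 of 31 hosts and 66.6 peaks per Mb, led by Hr3 (746), zfh1 (406), shn (367) and aop (309.8), a repressor of the Ras pathway. This list was not free of other classes, since zfh1 also encodes a homeodomain and pum is also on the RNA-binding list. Homeodomain factors, the class of H2.0 itself, were counted without zfh1. They had 6 of 33 and 29.8 per Mb, close to the value over all genes, with hth (257), Abd-B (130.1), Antp (104) and inv (95.6). Their median eligible length was 12386 bp, and protein-coding genes over 5000 and up to 20000 bp had 30.9% hosts and 45.5 per Mb. Chromatin regulators had 6 of 33 and 72.3 per Mb in 0.111 Mb, so that this density rested on 8 peaks, in Adf1 (1161), Trl (726), Psc (223), trx (180) and 2 more genes. Adf1, with 1 of these peaks, and Trl, with 3, also encode sequence-specific factors, so this list was mixed too. Signalling components had 21 of 40 and 61.4 per Mb, with aos, an inhibitor of the EGF receptor (406), the Wnt receptor gene fz (329.7), Mad, which is also on the visceral list, and neur (278). RNA-binding genes had 15 of 24 but 20.1 per Mb, with a median eligible length of 38723 bp, led by mub (646), brat (404), shep (309) and ps (276). Cytoskeleton and adhesion genes had 7 of 27 and 21.9 per Mb, with tsr, the fly cofilin (290.4), crb (232), ed (176) and rhea, the fly talin (158). Of the ribosomal protein list, 5 autosomal genes had any eligible sequence, 0.000456 Mb in all, and none was a host, which that length could not show either way.

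Base composition at the summit set the intronic peaks apart from their flanks, and the other classes of peak also had low GC there. In these windows around the summit the intronic peaks averaged 34.005% GC, and over windows of the same width 400 bp to both sides they averaged 42.5%. Replicate 1 had 32.1% at summits and 43.1% in flanks, and replicate 2 had 33.4% and 42.6%. All eligible intron windows averaged 40.2%, and ranked intronic peaks under the threshold averaged 44.6%, above their surroundings rather than below them. Autosomal intergenic peaks averaged 35.2%, X intronic peaks 32.8% and autosomal promoter peaks 36.04%. First and later introns had 34.4% each. GC content was 30.2% in the highest signal class and 38.5% in the lowest, and across the 1194 peaks the Spearman correlation of signal with GC content was −0.32, a description over peaks of 1 pooled list that share libraries. The summit lay in sequence that the reference soft-masks as repeats in 21.5% of intronic peaks, against 19.7% of all eligible bases.

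**Figure D5:**
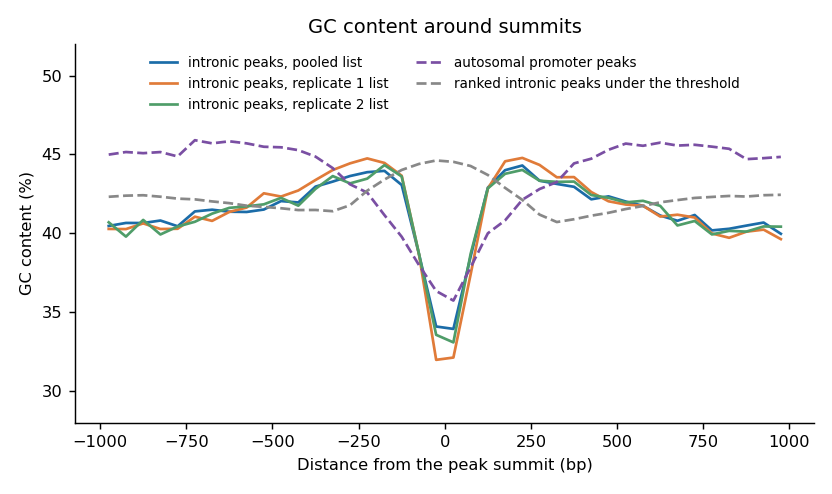
Mean GC content in bins of 50 bp by distance from the summit, for intronic peaks of the pooled and replicate lists (solid), autosomal promoter peaks and ranked intronic peaks under the threshold (dashed); the vertical axis does not start at 0. Intronic peaks dip to between 32.0% and 34.1% at the summit in all 3 lists, whereas ranked peaks under the threshold reach 44.6% there.

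Motifs were searched on both strands in the same windows, and a match is a description of letters, not a bound site. GATAA, the core of GATA factor sites, was in 24.5% of summit windows and 18.7% of flanks (25.9% and 19.1% in replicate 1, 23.0% and 18.5% in replicate 2), and in 19.3% of all eligible intron windows. The forkhead core TGTTTA was in 14.7% and 10.9% (10.6% of all windows), the homeodomain core TAATTA in 9.88% and 6.99% (7.88%), and the Mef2 site in 5.61% and 3.18% (3.602%). TAATTA was in 11.4% of summits and 7.05% of flanks in replicate 1, and in 10.6% and 8.25% in replicate 2. Other peak classes held these motifs too. GATAA, forkhead, TAATTA and Mef2 were in 23.5%, 13.2%, 9.41% and 7.44% of autosomal promoter peaks. The same series was 20.4%, 10%, 10.4% and 7.02% in autosomal intergenic peaks and 22.7%, 12.4%, 8.72% and 5.05% in X intronic peaks. TTTATG, a core of caudal and Abd-B class homeodomains, was in 13.8% of summits and 12.5% of flanks (13.3% of all windows). Less common at summits than in flanks were GAGAG, the GAGA factor core (10.6% and 15.5%, with 11.2% of all windows), GCCAT, the Pho core (12.6% and 18.3%, 19.9%), the E-box CANNTG (37.6% and 42.3%, 39.98%) and CAAGTG, an NK-class homeodomain core that is also an E-box (5.70% and 7.91%, 6.82%). TATCGATA, bound by DREF at many promoters, was in 1 intronic summit window (0.0838%) and in 60 autosomal promoter windows (3.38%).

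Among windows of like GC content the picture differed by motif. Among windows under 30% GC, TAATTA was in 16.0% of the 457 intronic peaks and in 16.9% of eligible intron windows, Mef2 in 9.41% and 10.9%, forkhead in 16.0% and 18.1%, and GATAA in 27.6% and 27.2%. From 30% to under 35% GC, TAATTA was in 9.74% and 10.6%, with 10.8% in replicate 1 and 11.9% in replicate 2, and GATAA was in 25.3% and 24.5%. At 40% to under 45% GC, over 98 peaks, GATAA was in 26.5% against 18.0% (26.9% in replicate 1 and 24.2% in replicate 2) and forkhead in 15.3% against 9.17% (19.2% and 16.1%). GAGAG, less common at summits than in flanks, was in the pooled list more common at summits than in intron windows in all 5 GC classes, with 5.69% and 4.80% under 30% GC, 11.04% and 7.95%, 13.4% and 10.6%, 17.3% and 12.7%, and 16.8% and 15.3% at 45% and over. In the last class replicate 1 was below the intron windows, at 8.96%, and so was replicate 2, at 14.7%. The E-box was in 32.2% of summits and 25.8% of intron windows under 30% GC, and in 45.7% and 39.5% from 35% to under 40% GC, where replicate 1 had 38.1% and replicate 2 had 40.2%. For the homeodomain core the pooled list lay below the intron windows in both classes under 35% GC, and both replicate lists lay below them under 30% GC (16.7% and 14.8%) and above them from 30% to under 35%.

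Comparison at like GC content brought out another word. Among windows under 35% GC, 3 of 565 6-mers were over 2 times as common at intronic summits as in eligible intron windows, namely CAGTGC (2.14 times; 2.04 in replicate 1 and 2.83 in replicate 2), ACAGTG (2.11; 1.67 and 2.40) and CACTGA (2.06; 1.68 and 2.15), which share the letters CACTG or their complement CAGTG. The word CACTG was then counted alone, so it was chosen after its values were seen and carries no test. It was in 23.2% of intronic summit windows and 15.2% of flanks, 19.9% and 14.5% in replicate 1, and 23.2% and 14.7% in replicate 2. Against eligible windows of the same GC class it was in 9.85% and 6.996% under 30% GC, the class with the most peaks, in 26.6% and 11.3% from 30% to under 35% GC, in 30.5% and 13.7% from 35% to under 40%, and in 40.8% and 16.4% from 40% to under 45%, and in 35.9% and 20.1% at 45% and over. In the lowest of these classes replicate 1 had 9.95% and replicate 2 had 15.4%, and in the highest they had 25.4% and 28.4%. Promoter peaks had it in 23.6% of windows and intergenic peaks in 21.2%, so it was not a feature of introns alone. Intronic peaks of the highest signal class had CACTG in 15.9% of windows and those of the lowest in 27.1%. GC content also differed between these signal classes. Under 30% GC they had 9.49% and 17.5%, and from 30% to under 35% GC they had 24.3% and 22.2%.
The longer word CACTGAGA was also chosen after values were seen and carries no test. It was in 27 intronic windows (2.26%), with 2.35% in replicate 1 and 1.83% in replicate 2. Flanks had it in 0.126%, eligible windows in 0.318% and ranked peaks under the threshold in 0.437%. By signal class it was in 1.22% of intronic peaks in the highest and 2.71% in the lowest. It was in 2.63% of autosomal intergenic peaks, 0.732% of autosomal promoter peaks and 0.917% of X intronic peaks. Of the 27 peaks, 9 were in both replicate lists. Among these 9, 2 are shown as examples, in a first intron of drongo (chr2L:846358-846458, signal value 96.4, with 47.3 and 51.95 in replicates 1 and 2) and in a later intron of the axon guidance gene Sema1a (chr2L:8602801-8602901, 88.1, with 42.2 and 46.6), shown on the plus strand with the word, here as its complement, in capitals.
drongo: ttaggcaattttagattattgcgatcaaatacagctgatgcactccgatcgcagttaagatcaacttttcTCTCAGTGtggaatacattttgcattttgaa
Sema1a: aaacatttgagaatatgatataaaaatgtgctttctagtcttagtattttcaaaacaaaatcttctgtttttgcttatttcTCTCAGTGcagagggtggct

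Single words that set summits apart from their own flanks were AT-rich. The 6-mers with the highest ratio of summits over flanks were ACTATA (2.97; 2.98 in replicate 1 and 2.16 in replicate 2), ATCTTA (2.72; 4.25 and 2.57), TTTAAA (2.72; 3.61 and 2.72) and ATATTA (2.63; 3.74 and 3.02), out of 748 compared. The lowest was GCCAGC (0.328; 0.237 and 0.353). AAGATA, chosen after its values were seen and holding the letters GATA, was in 12.8% of summits and 5.19% of flanks, in 11.4% of autosomal intergenic peaks, in 9.40% of X intronic peaks and in 7.32% of autosomal promoter peaks. Among windows under 35% GC it was in 15.8% of intronic peaks and 10.5% of eligible windows (15.6% in replicate 1 and 15% in replicate 2).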

How the data were processed

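Anti-GFP chromatin immunoprecipitates of 0 to 24 h embryos were sequenced in 2 replicates, and only peak lists on dm6 were used. Per the labels, the chromatin was sheared to fragments of 200 to 800 bp. The aligner, the peak caller and the handling of the control library were not given in any source used here, and the depth behind the lists is unknown. The signal value, an enrichment signal per peak, was deposited by the authors and is not scaled between lists. The score deposited by the authors runs to 1000 and comes from the irreproducible discovery rate (IDR), and the thresholded lists hold scores of at least 830, or IDR up to 0.01. The deposited −log10 q-value of each peak was used only for the limit of 0.05. The pooled, conservative and ranked lists cover both replicates, and each replicate also has lists of its own.

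Summits were placed on Ensembl BDGP6.54 annotation, in which starts of 18277 genes and 5889 transposable element entries all count, and on the RefSeq Release 6 genome (dm6). Peaks on unplaced scaffolds were not used. Density is peaks per Mb of autosomal sequence that could hold such a peak, 38.7 Mb in all. Motif windows span the summit and 50 bp to each side, and flanks are equal windows 400 bp away on both sides. No p-value was computed, since regions are not replicates, and the separate replicate lists give the spread. Work was done in Python 3.11.15 with numpy 2.4.6, pandas 2.3.3, scipy 1.17.1 and matplotlib 3.10.9, and was tested on simulated data.

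The peaks, gene lists, motifs and comparisons were chosen with earlier results of these data known. Named peaks are the 25 highest present in both replicate lists, the 10 genes with the most peaks (ties by highest signal) and up to 4 genes per gene list with the highest signal. The 6-mers, the words CACTG, CACTGAGA and AAGATA and the split by intron number were chosen after values were seen. Alternatives varied the list, the distance limit, the q-value, the signal, transposable element starts, the sharing distance, the motif windows and the intron classes.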

Additional observations from a re-analysis of the deposited data

Results flagged for a closer look

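The ranked pooled list held 39 autosomal intronic peaks away from starts whose score passed the minimum but which the pooled thresholded list left out, so they stand outside every comparison above. Of these, 30 lay on 3R, 8 on 2L and 1 on 2R, and their median signal value was 109.6 in the ranked pooled list. The highest was in a first intron of ush, 1420 bp from a start, with a signal value of 1716 in the ranked pooled list. The ranked lists of replicates 1 and 2 had 979.8 and 818.9 there. Others were in Lk6 (1395), trx (754) and tara (517). The thresholded list of replicate 1 held 1 of the 39 and that of replicate 2 held 0. Why they were left out was not tested.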

How the results depend on the processing

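First introns had the higher density in every alternative run. With q-values below 0.05 only, there were 795 peaks, with a median signal of 119, 68.7% in both lists and a density ratio of first over later introns of 3.13. At or above the pooled median signal the values were 562 peaks, 144, 87.7% and 3.42, with 45.4% in first introns and 441 hosts. Both settings keep stronger peaks by construction. Over 1000 bp from starts, 39.5% were in first introns and the ratio was 2.53, and with mixed positions counted as first, 68.6% were in first introns. With 1 replicate left out, so that the other replicate's list stands alone, there were 764 to 808 peaks, a median signal of 57.3 to 63.3, 68.8% to 72.5% shared with the other list, 43.6% to 45.03% in first introns, a ratio of 3.07 to 3.30 and 549 to 576 hosts. The conservative list (1139 peaks, ratio 3.05), starts without transposable elements (1206 peaks, 3.02) and a limit of 250 bp (1354 peaks, 2.81) changed these little. Summits exceeded flanks for TAATTA, the Mef2 site, GATAA and the forkhead core, and were below them for GAGAG and GCCAT, in all 11 alternatives of each, whereas the sign for TTTATG turned in 2. No paired analysis was possible because there is 1 group. Depth is unknown, so a missing peak may be one the libraries could not show.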
